A study of Mus musculus with 8 samples.

Results

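Small nucleolar RNA (snoRNA) genes were followed across the hearts of 8 mice. A gene counted as a member when its probe set on the array carried a single gene symbol and that symbol was Snora or Snord followed by a digit, and probe sets of the same gene were averaged. This gave 73 genes from 75 probe sets, out of 22180 genes measured with a single symbol. Of these, 26 were H/ACA box genes (Snora symbols, 28 probe sets, with 2 each for Snora19, which hold identical values, and for Snora33) and 47 were C/D box genes (Snord symbols, 47 probe sets). All 73 had a value in every heart and no filter on low values was applied. A further 43 probe sets named several genes of which at least 1 was a snoRNA, and these were left out.

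The hearts came from 4 male and 4 female mice, aged 8 months, each with 1 disrupted copy of Pcyt2 (Pcyt2+/-), which encodes the enzyme that makes CDP-ethanolamine for phosphatidylethanolamine synthesis. The allele is shared by both groups, which leaves sex as their only labelled difference; wild-type hearts were not analysed here, and the strain is not given in the sources used here. The tissue is labelled myocardium, taken between 3 and 4 hours after lights on, and biotin-labelled cRNA was prepared from 100 ng of total RNA per heart. Values are log2 values relative to the median of each probe set over the 8 arrays, so they show how a gene varies between hearts but hold no absolute level, and the number of arrays limits their precision.

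snoRNAs are short, stable nucleolar RNAs, most of which are cut from the introns of longer host transcripts after splicing. C/D box snoRNAs bind fibrillarin, Nop56, Nop58 and Snu13 and guide the methylation of ribose in ribosomal RNA, whereas H/ACA box snoRNAs bind dyskerin, Gar1, Nhp2 and Nop10 and guide pseudouridylation. A few members of both classes, such as the U17, U8, U13 and U22 RNAs, take part in the cleavage or maturation of the ribosomal RNA precursor instead. These array values cannot tell a mature snoRNA from the unspliced host transcript that contains it.

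Among the checks on the whole series, the lowest Xist value in females was 1.99 and the highest in males -1.99, and the Y-linked genes Eif2s3y, Uty and Kdm5d did not overlap between the sexes either. Pcyt2 itself had a mean of 0.09 (SD 0.20) over the males and of 0.04 (SD 0.14) over the females, 4 hearts each. All 10 listed cardiomyocyte markers had probe sets, with list means per heart between -0.09 and 0.02, although centred values cannot show that a marker is present. Markers of other tissues did vary between hearts. The mean of 7 liver transcripts was between -0.07 and -0.01 in the males and was 0.30, 0.63, -0.04 and 0.08 in females 1 to 4. Albumin (Alb) was at 1.76 and 2.69 in females 1 and 2 and between -0.18 and 0.03 in the other hearts. In female 1 the mean rested on Alb and Apoa2 (0.41). The other transcripts there were at -0.03 (Apoa1), 0.13 (Ttr), 0.005 (Serpina1a), 0.08 (Fgb) and -0.24 (Ahsg). Fast skeletal muscle markers were highest in males 1 and 2 (list means of 0.53 and 0.78), atrial markers lowest in female 1 (-1.03) and male 3 (-0.82), and adipocyte markers highest in female 4 (0.43). In whole tissue, fewer cells of a type and less RNA per cell cannot be told apart.

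The snoRNA genes varied more from heart to heart than most genes on the array. The SD over the 8 hearts had a median of 0.137 for the 73 genes, with 0.127 for H/ACA and 0.140 for C/D genes, against 0.0754 for all genes. The 472 microRNA genes, another class of short noncoding genes on the same arrays, had a median SD of 0.0672, and the 86 ribosomal protein genes 0.0886. Small RNA genes nearer in kind also lay above the median of all genes. The median SD was 0.226 for 6 polymerase III and other housekeeping small RNAs and 0.136 for 5 small Cajal body RNA genes. It was 0.124 for 4 genes with the Rnu symbols of small nuclear RNAs, but 1 of these, Rnu3a (SD 0.148), is the U3 snoRNA. An SD above the 95th percentile of all genes (0.159) was found for 27 of the 73 snoRNA genes (37.0%), namely 9 of 26 H/ACA and 18 of 47 C/D genes, compared with 12.7% of microRNA genes. The SD of 66 of the 73 members was above the median of all genes.

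The range among the members was wide. Snord104 had the largest SD, 0.762, followed by Snord71 (0.561), Snora73b (0.485) and Snora73a (0.435). Snord90 was the most even, at 0.0105, with every heart between -0.02 and 0.01. Other C/D genes with a small SD were Snord92 (0.0452) and Snord1b (0.0517). RefSeq transcript length bore little relation to the spread. H/ACA genes had a median length of 118.5 bases (56 to 205) and C/D genes of 68 bases (48 to 221), and Spearman's rho of length with SD was 0.25 over the 26 H/ACA genes and 0.003 over the 47 C/D genes, as a description across genes.

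**Figure D1:**
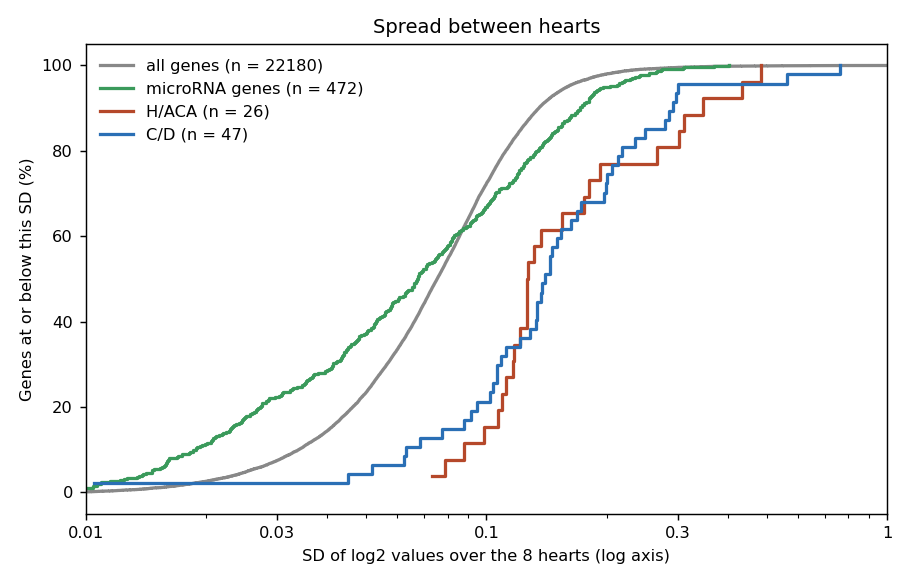
Cumulative share of genes (vertical axis, percent) at or below each SD of log2 values over the 8 hearts (horizontal log axis, drawn from 0.01 to 1), for all genes, microRNA genes and the 2 snoRNA classes. Both snoRNA curves lie to the right of the other curves over most of their length, with medians of 0.127 (H/ACA) and 0.140 (C/D) against 0.0754 for all genes.

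Snora73a and Snora73b are the U17 RNAs, H/ACA box RNAs needed for early cleavage of the precursor that yields the small-subunit rRNA. Both lie in the noncoding gene Snhg3 and are near-identical copies, so their probe sets may read the same RNA and their values were not taken as independent. Snora73b had values of -0.27, -0.01, -0.19 and 0.01 in males 1 to 4 and of 0.79, 1.03, 0.39 and -0.14 in females 1 to 4. Snora73a had values of -0.06, -0.08, -0.18 and 0.06 in males and of 0.73, 0.94, 0.36 and -0.20 in females. For each of the 2 genes, females 1, 2 and 3 were above every male, and female 4 lay within or below the males. The female minus male difference was 0.63 (SE 0.22, limma adjusted p = 0.621) for Snora73b and 0.52 (SE 0.21, limma adjusted p = 0.671) for Snora73a, and neither passed the threshold of 0.05.

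Snord104 is a C/D box RNA that guides methylation of large-subunit rRNA, and it lies in the noncoding gene Gm36220 on another chromosome from Snhg3. Its values were -0.07, 0.07, -0.64 and -0.09 in males 1 to 4 and 1.19, 1.53, 0.31 and -0.45 in females 1 to 4. As with the U17 genes, females 1, 2 and 3 exceeded all males whereas female 4 was below 3 of the 4 males. The female mean was 1.77-fold higher, a difference of 0.83 (SE 0.39) with a 95% interval from -0.05 to 1.70. It did not exceed the spread among the females (SD 0.89) and did not pass the test (limma adjusted p = 0.726). Across the 8 hearts, Pearson's r of Snord104 was 0.972 with Snora73a (rho 0.881) and 0.955 with Snora73b (rho 0.810). Without females 2 and 1, the 2 hearts farthest from the median of Snord104, r was 0.821 and 0.717 over the remaining 6.

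Snord71, a C/D box gene inside Ap1g1 and the noncoding gene Gm17344, also had its 2 highest values in females 1 and 2 but differed elsewhere. Its values were -0.31, -0.44, 0.08 and 0.19 in males 1 to 4 and 0.72, 1.21, -0.08 and -0.23 in females 1 to 4, so that the other 2 females lay among the males. Its difference was 0.52 (SE 0.30, limma adjusted p = 0.786). The r with Snord104 was 0.817 but rho was 0.405, and r was -0.27 without females 2 and 1, so the relation of these 2 genes rested on those hearts.

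Females 1 and 2 were also the hearts with high albumin. The r of the liver marker mean, to which Alb contributed most in those 2 hearts, with Snord104 was 0.861 over 8 hearts and -0.279 without them. When females 1 and 2 were left out, the female minus male difference was 0.11 (SE 0.25) for Snord104, 0.24 (SE 0.15) for Snora73b, 0.15 (SE 0.14) for Snora73a and -0.03 (SE 0.18) for Snord71. The part of the liver transcripts in the snoRNA values was not tested.

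**Figure D2:**
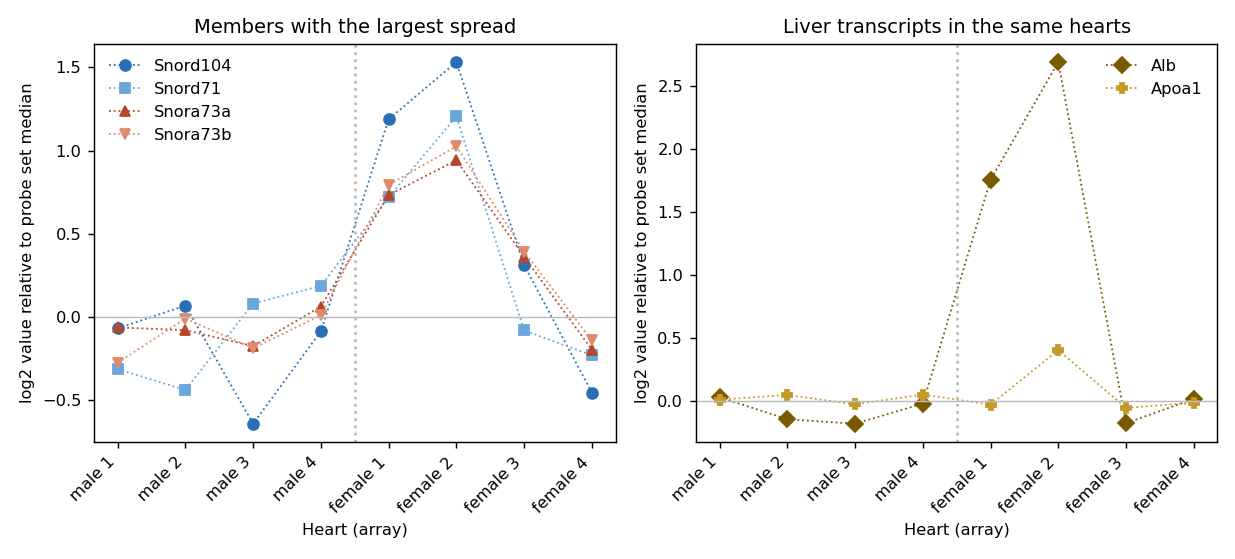
Log2 value relative to the probe set median (vertical axes) in each heart (horizontal axes; the dotted lines only join points of a gene) for the 4 members with the largest SD (left) and for the liver transcripts Alb and Apoa1 (right). Females 1 and 2 hold the 2 highest values of all 4 members, up to 1.53 for Snord104, and of Alb, up to 2.69.

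The start regions of the genes that hold Snord104 and the U17 RNAs are shown because these members varied together without sharing a host, beside Snhg12, whose 4 members did not vary together, and 1110038B12Rik, the host of Snord52 described below. Each line gives 50 bases before and 50 after the annotated RefSeq start (GRCm38.p6), 5′ to 3′ on the strand of the gene. The capitals mark a match to CTTTC within 20 bases of the annotated start, and not elsewhere in the lines. CTTTC is a pyrimidine run of the kind found at the start of transcripts of the translation machinery.
Snhg3, chr4:132353637-132353736, minus strand: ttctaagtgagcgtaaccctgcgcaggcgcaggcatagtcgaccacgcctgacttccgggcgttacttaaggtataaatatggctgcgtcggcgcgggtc
Gm36220, chr11:106500865-106500964, plus strand: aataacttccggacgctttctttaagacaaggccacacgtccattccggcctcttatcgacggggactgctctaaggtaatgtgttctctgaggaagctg
Snhg12, chr4:132308628-132308727, plus strand: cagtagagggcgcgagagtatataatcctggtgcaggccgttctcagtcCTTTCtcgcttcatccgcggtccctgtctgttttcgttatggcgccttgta
1110038B12Rik, chr17:34952422-34952521, minus strand: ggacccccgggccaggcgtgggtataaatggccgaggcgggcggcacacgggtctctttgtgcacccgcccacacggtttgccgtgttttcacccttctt
Either CTTTC or CTTTT was sought on the strand of the gene within 40 bases centred on the annotated start. A match was found for 10 of the 48 host genes that have a listed start region (20.8%), against 9.18% of 27025 genes. On the opposite strand the shares were 4.17% and 8.33%. Snhg12 holds a match in this window and the hosts of Snord104 and of the U17 RNAs do not, which says only that these letters are absent from the window. Other pyrimidine runs were not sought.

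Turning to the sexes, most snoRNA genes had a higher mean in females, by small amounts, and none passed the test. The background in the comparison of females with males was 7 of 22180 genes with a limma adjusted p under 0.05 (0.0316%). No snoRNA gene was among them, and the lowest adjusted p of a member was 0.232. At an unadjusted p under 0.05, 1543 genes were counted (6.96% of all genes), 3.63% with the higher mean in females and 3.32% in males. Among the snoRNA genes 16 of 73 were (21.9%), 15 of them higher in females and 1, Snord37, higher in males. The mean was higher in females for 56 of 73 snoRNA genes (76.7%), against 49.6% of all genes and 54.0% of microRNA genes. Members that vary together are not separate observations, so these shares describe the class and are no test of it.

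Both classes leaned this way. The median difference was 0.109 over the 26 H/ACA genes, of which 19 were higher in females and 6 had an unadjusted p under 0.05. For the 47 C/D genes the median was 0.0967, with 37 higher in females and 10 with an unadjusted p under 0.05. Over all genes the median was -0.000582, over microRNA genes 0.00403 and over ribosomal protein genes 0.0217. Without females 1 and 2, 52 of the 73 members were still higher in females (71.2%; 49.2% of all genes) and 12 had an unadjusted p under 0.05 (16.4%; 6.33% of all genes). The median was then 0.124 for H/ACA (22 of 26 higher in females) and 0.0366 for C/D genes (30 of 47). Whether the classes differ was not tested.

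**Figure D3:**
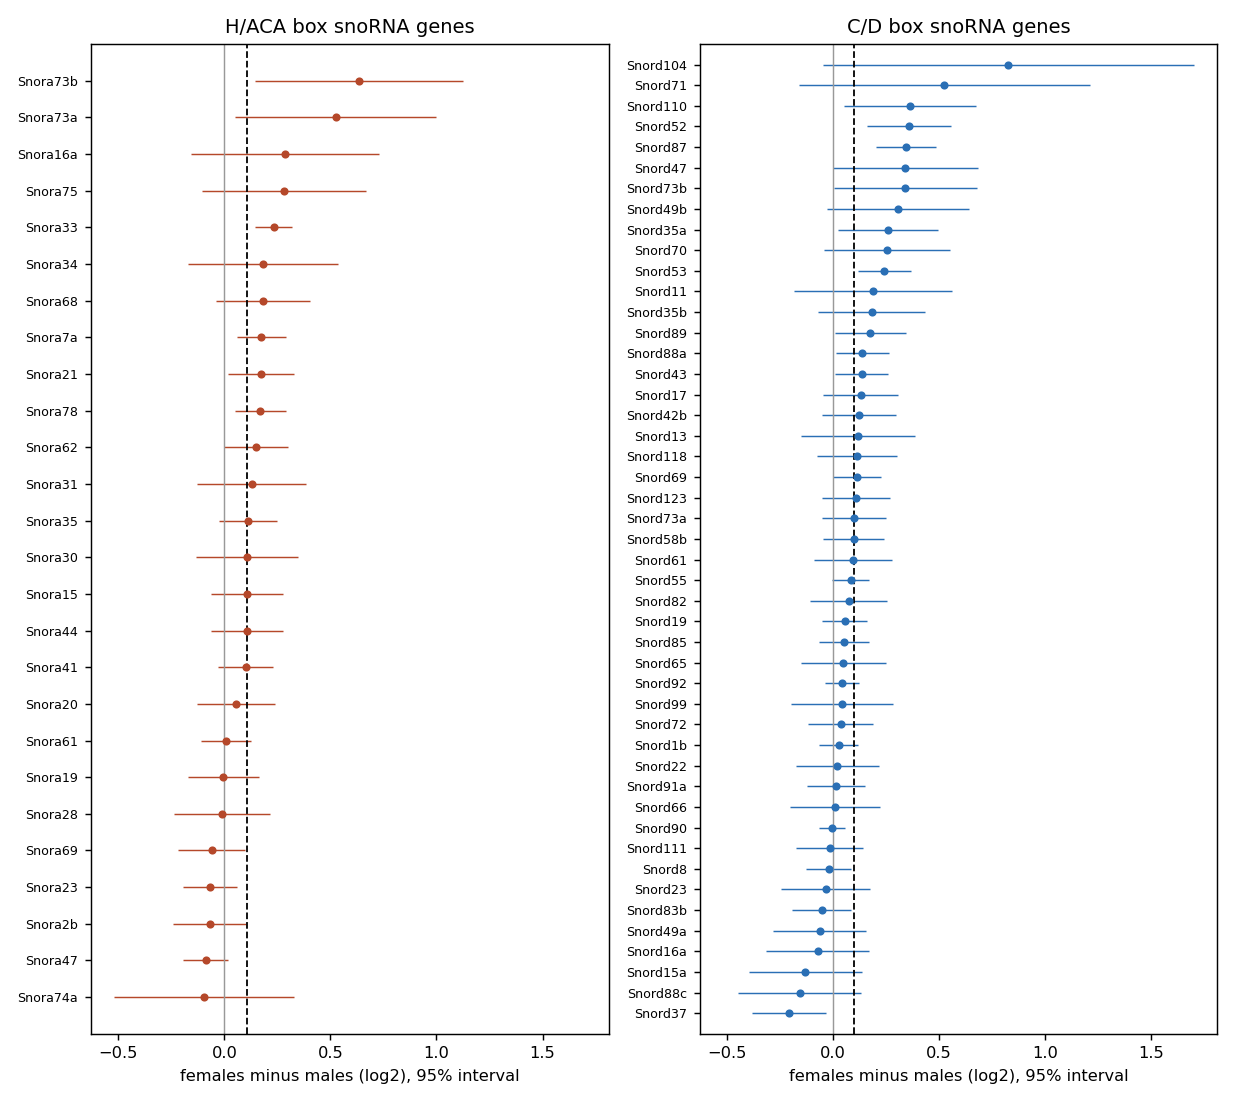
Female minus male difference in log2 value (horizontal axis) with its 95% interval for each of the 26 H/ACA (left) and 47 C/D genes (right), 4 hearts per sex; the dashed lines mark the class medians of 0.109 and 0.0967. Most points lie to the right of 0, and the intervals of Snord104 and Snord71 are the widest.

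For 5 members every female was above every male: the H/ACA genes Snora33 and Snora78 and the C/D genes Snord87, Snord53 and Snord52. That is 6.85% of the members, against 1.89% of all genes in that direction. No member had every male above every female, against 1.85% of all genes.

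Snora33, a guide for pseudouridylation of large-subunit rRNA inside the ribosomal protein gene Rps12, had the smallest p of all members. Its values were -0.04, -0.15, -0.04 and -0.16 in males 1 to 4 and 0.14, 0.13, 0.13 and 0.13 in females 1 to 4. These are means of 2 probe sets, and all females were above all males in them, with a difference of 0.23 (SE 0.04, limma adjusted p = 0.232). The 2 probe sets disagreed. One had values of -0.16, -0.27, -0.07 and -0.32 in males and 0.34, 0.23, 0.07 and 0.26 in females, a difference of 0.42 (SE 0.07, limma adjusted p = 0.264). In the other the sexes overlapped, with a difference of 0.04 (SE 0.05), so the closeness of the 4 females appeared only in the mean. The averaged difference was as large without females 1 and 2 (0.23, SE 0.05).

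Snord87 guides methylation of large-subunit rRNA and lies in Snhg6, within the bounds of Mcmdc2. Its values were -0.10, -0.27, -0.07 and -0.22 in males and 0.07, 0.31, 0.12 and 0.22 in females, a difference of 0.35 (SE 0.06, limma adjusted p = 0.267). All females lay above all males, and the difference was 0.33 (SE 0.07) without females 1 and 2. Snord87, Snord53 and Snord73b were the C/D genes with the highest mean correlation with the other members.

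Snord53, in Wdr43, a gene for a pre-rRNA processing factor, had values of -0.04, -0.16, -0.03 and -0.13 in males and 0.17, 0.28, 0.03 and 0.13 in females (difference 0.24, SE 0.06, limma adjusted p = 0.446). Snord52 had values of -0.45, -0.31, -0.05 and -0.11 in males and 0.25, 0.14, 0.05 and 0.07 in females (difference 0.36, SE 0.09, limma adjusted p = 0.476). The highest male and the lowest female were close in both genes, at -0.03 and 0.03 for Snord53 and -0.05 and 0.05 for Snord52. Both are guides for methylation of large-subunit rRNA.

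Snora78, whose position lies within Snhg9 and Rps2, had values of -0.04, -0.18, -0.01 and -0.003 in males and 0.003, 0.16, 0.10 and 0.18 in females. Male 4 and female 1 were almost level, and the difference was 0.17 (SE 0.05, limma adjusted p = 0.571). Snora7a, in the ribosomal protein gene Rpl32, had values of -0.04, -0.11, 0.003 and -0.13 in males and -0.003, 0.22, 0.12 and 0.09 in females (difference 0.17, SE 0.05, limma adjusted p = 0.556), and here male 3 exceeded female 1. Snora7a, Snora78 and Snora15 were the H/ACA genes with the highest mean correlation with the other members. Snora21, in Rpl23, differed by 0.17 (SE 0.07), with female 4 among the males.

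Among the remaining C/D genes with a small p, Snord110 lies in the gene for Nop56, a protein of the C/D particle itself. Its values were -0.39, -0.16, 0.07 and -0.08 in males and 0.33, 0.57, 0.01 and -0.01 in females (difference 0.36, SE 0.14, limma adjusted p = 0.660). Females 1 and 2 were again the highest, and the difference was 0.14 (SE 0.11) without them. Snord88a differed by 0.14 (SE 0.06) and by 0.05 (SE 0.05) without those 2 hearts.

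Snord37, in the gene for elongation factor Eef2, ran the other way. Its values were 0.05, 0.18, 0.32 and -0.02 in males and 0.002, -0.002, -0.11 and -0.20 in females (difference -0.21, SE 0.08, limma adjusted p = 0.650). The sexes overlapped through male 4. The other 16 members with a higher mean in males differed by at most 0.16, the largest being Snord88c (-0.16, SE 0.13) and Snord15a (-0.13, SE 0.12).

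Other members with a large spread overlapped widely between the sexes. Snora16a, in Snhg12, had its lowest values in males 1 and 2 (-0.35 and -0.42) and its highest in male 4 and female 4 (0.43 and 0.57). Snora74a ran from 0.44 in male 1 to -0.53 in female 1. Snora75, inside the nucleolin gene Ncl, was lowest in male 4 (-0.42) and highest in female 2 (0.61). Each of these 3 ordered the hearts differently, and the differences were 0.29 (SE 0.20) for Snora16a, -0.10 (SE 0.19) for Snora74a and 0.28 (SE 0.17) for Snora75.

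Snora34 was at -0.43 in female 1 and at 0.35, 0.30 and 0.25 in females 2 to 4, while the males lay between -0.19 and 0.04. Its difference was 0.18 (SE 0.16) over all hearts and 0.34 (SE 0.07) without females 1 and 2. Snord47, a member in the noncoding gene Gas5, was at -0.34, -0.40 and -0.29 in males 1, 2 and 4 but at 0.25 in male 3. In females it ran from -0.12 to 0.40, a difference of 0.34 (SE 0.15, limma adjusted p = 0.718). Snord49b was lowest in male 2 (-0.58) and highest in female 4 (0.19), and Snord73b was highest in female 2 (0.65) and lowest in male 2 (-0.34). Their differences were 0.30 (SE 0.15) and 0.34 (SE 0.15), with limma adjusted p of 0.728 and 0.716.

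By role, the 5 measured snoRNA genes that take part in cleavage or maturation of the rRNA precursor all had higher means in females, and 2 of the 5 had an unadjusted p under 0.05 (3.63% of all genes in that direction). Those 2 are the U17 copies, which may read the same RNA. Snord118 (U8, needed for maturation of the large-subunit rRNA) differed by 0.11 (SE 0.08), Snord13 (U13, which assists acetylation of small-subunit rRNA) by 0.12 (SE 0.12) and Snord22 (U22, needed for the small-subunit rRNA) by 0.02 (SE 0.09). Without females 1 and 2 the differences of these 3 were 0.01, -0.07 and -0.005. The U3 RNA, the most abundant of the processing snoRNAs, carries the symbol Rnu3a here and so falls outside the naming rule. Its values were -0.05, -0.14, -0.10 and -0.11 in males and 0.05, 0.14, 0.25 and 0.17 in females, with every female above every male and a difference of 0.25 (SE 0.05, limma adjusted p = 0.267). None of the 6 listed orphan snoRNAs of imprinted loci, such as Snord115 and Snord116, was measured with a single symbol.

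Variation shared between hearts was summarised by the median of each class in each heart. The H/ACA median was -0.03, -0.03, -0.03 and -0.01 in males 1 to 4 and -0.02, 0.10, 0.12 and -0.03 in females 1 to 4. Females 2 and 3 stood above the other 6 hearts, which lay within a narrow band. The C/D median was -0.04, -0.11, 0.003 and -0.009 in males and 0.03, 0.13, 0.0004 and -0.0004 in females. Female 2 was again high, but female 3 was not, and male 2 was the lowest heart. The medians spanned 0.156 for H/ACA and 0.238 for C/D genes. The spans were 0.00497 for all genes, 0.00829 for microRNA genes and 0.0535 for ribosomal protein genes. Array medians over all probe sets lay between -0.00211 and 0.00230, so the span of all genes was bound to be small. A median over fewer genes with a larger SD also spans more without any shared variation. The spans of sets that differ in size and SD are therefore no measure of shared variation by themselves. Without female 2 the C/D medians spanned 0.139.

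Counted by gene, the same hearts stood out. Female 2 held the highest value of 24 of the 73 members (32.9%; 11.7% of all genes), and 57 of the 73 were above 0 there (78.1%; 48.7% of all genes). In female 3, 22 of 26 H/ACA genes were above 0 but only 24 of 47 C/D genes. In male 2, 14 of 47 C/D genes were at -0.2 or lower, compared with 4 of 26 H/ACA genes and 1.51% of all genes. The H/ACA and C/D medians had an r of 0.589 and a rho of 0.619 over the 8 hearts, and r was 0.554 without females 3 and 2.

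Markers of other tissues moved with the class medians to differing degrees. The liver marker mean, to which Alb contributed most in females 1 and 2, had an r of 0.837 with the C/D median over 8 hearts. With the H/ACA median its r was 0.458. Without females 2 and 1 these were 0.210 and -0.174. The adipocyte marker mean had an r of 0.489 with the C/D and 0.299 with the H/ACA median, and of 0.395 and 0.647 without females 4 and 2. For the atrial mean the 2 values were 0.111 and 0.338, and 0.415 and 0.189 without female 1 and male 3. The fast skeletal muscle mean had an r of -0.468 and -0.292, and both signs turned without males 2 and 1, to 0.585 and 0.122. The part of these tissues in the class medians was not tested.

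**Figure D4:**
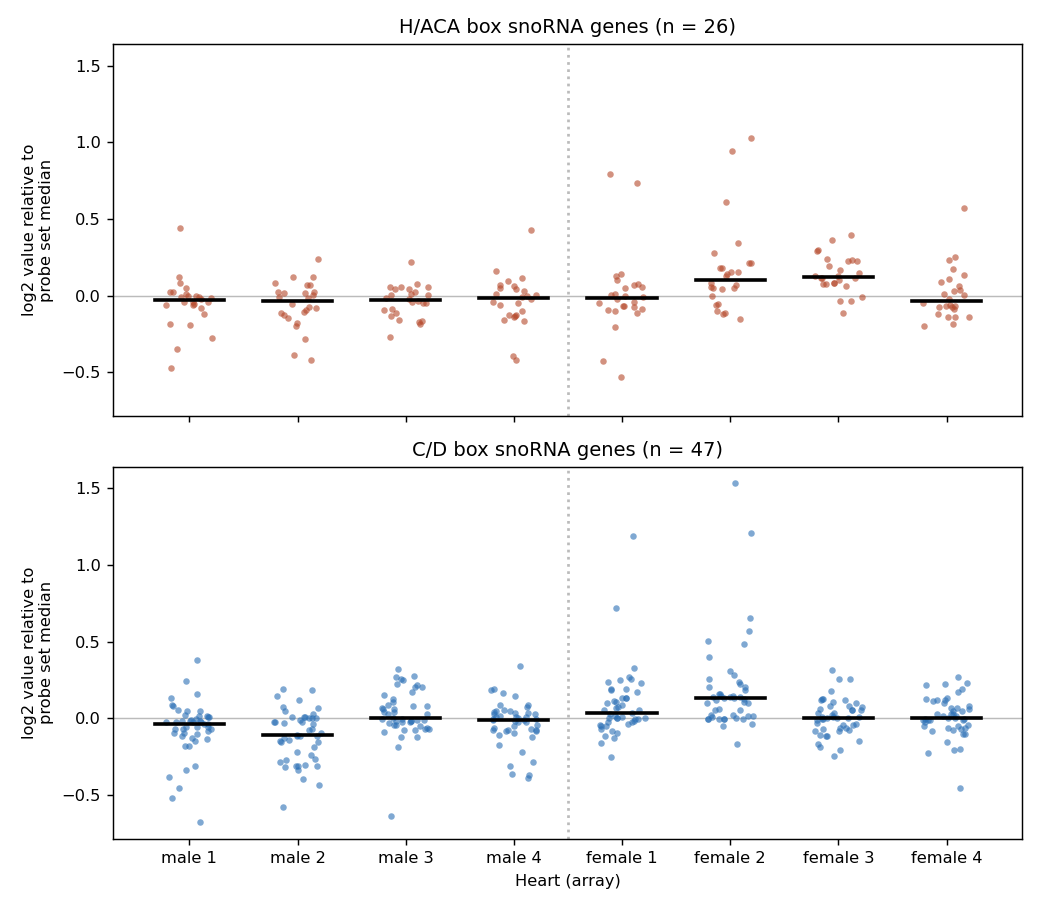
Log2 value relative to the probe set median (vertical axis) of every H/ACA (top) and C/D gene (bottom) in each heart (horizontal axis; males left and females right of the dotted line), with the class median as a bar. The bars of females 2 and 3 are raised for H/ACA (0.10 and 0.12), and that of female 2 for C/D genes (0.13).

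Pairs of snoRNA genes were on the whole weakly and positively related. Over the 8 hearts the median r was 0.186 for 325 pairs within H/ACA, 0.237 for 1081 pairs within C/D and 0.157 for 1222 pairs between the classes. Pairs of all genes had a median of 0.001, pairs of microRNA genes 0.005, pairs of ribosomal protein genes 0.0543 and pairs of the 4673 genes whose SD lay within the quartiles of the snoRNA genes 0.0055. An r of at least 0.7 was reached by 6.46%, 9.62% and 6.46% of pairs within H/ACA, within C/D and between classes, against 2.80% of pairs of all genes. With the mean of each sex subtracted the 3 medians were 0.142, 0.178 and 0.0476, so that pairs across the classes kept the least. Single hearts moved these medians: without female 3 that within H/ACA was 0.0957, and without female 2 that within C/D was 0.128. These pairs share the same 8 arrays and many share a gene, and no p was computed.

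Without females 1 and 2 the median r was 0.117 within C/D genes and 0.229 within H/ACA genes, lower and higher than with all hearts. Single members differed in how far they followed the rest. The mean r with the other members was highest for Snora7a (0.362), Snord87 (0.351) and Snord53 (0.350) and lowest for Snord83b (-0.316). With Snord104, 13 of the other 72 members had an r of at least 0.7 (18.1%), namely 4 of 26 H/ACA and 9 of 46 C/D genes, against 3.67% of all genes and 2.12% of microRNA genes. This count includes Snord71, whose r rested on females 1 and 2, and Snord73b, whose rho was only 0.333. The share was not computed without those 2 hearts. The genes nearest to Snord104 after the U17 pair were Snord35b (r 0.881, rho 0.643), Snord13 (r 0.840, rho 0.881) and Snora44 (r 0.821, rho 0.881).

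Most snoRNA genes lie inside another gene. By RefSeq positions (GRCm38.p6), 70 of the 73 did, the exceptions being Snord118, Snord13 and Snord89; strand was not checked. A ribosomal protein gene was among the hosts of 19 members; of the rest, 15 lay only in long noncoding genes and 36 in at least 1 other protein-coding gene. Members inside both kinds, such as Snord87, Snord47 and Snora78, were thus not counted as noncoding, and 20 members had at least 1 long noncoding host. The median female minus male difference of the members was 0.134, 0.106 and 0.0837 in these 3 groups. An unadjusted p under 0.05 was found for 7 of 19, 3 of 15 and 5 of 36 members, against 6.96% of all genes. A measured host was found for 60 members, giving 61 pairs with 47 hosts.

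The hosts varied less than the snoRNAs they hold. In 55 of the 61 pairs the snoRNA had the larger SD, and the median SD of the hosts was 0.0785. The hosts had a median female minus male difference of 0.03, with 34 of 47 higher in females (72.3%; 49.6% of all genes). An unadjusted p under 0.05 was found for 4 of them (8.51%), near the 6.96% of all genes. The r of a snoRNA with its host had a median of 0.0817 (rho -0.0238) and was above 0 in 39 of 61 pairs. The median r had no settled sign, being -0.0587 without female 2, 0.149 without male 3 and -0.00198 without females 1 and 2. Snhg3, host of the U17 genes, lay between -0.03 and 0.07 in 7 hearts and at -0.28 in male 4, and it had an r of 0.168 with Snora73b and 0.180 with Snora73a. Snord71 lies within both Ap1g1, which had an r of 0.0139 with it, and Gm17344, which was not measured with a single symbol. Gm36220, host of Snord104, was not measured with a single symbol either.

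A minority of pairs ran together. In 6 pairs (9.84%) the host was at or above the 95th percentile of r among all genes, which 1 gene in 20 reaches by definition. H/ACA gave 4 of 24 pairs: Snora30 with Srcap (r 0.896), Snora75 with Ncl (r 0.766), Snora7a with Rpl32 (r 0.720) and Snora34 with Kansl2 (r 0.675). C/D gave 2 of 37 (5.41%): Snord87 with Snhg6 (r 0.802, rho 0.929) and Snord53 with Wdr43 (r 0.797). Other members in the same hosts followed less: r was -0.602 for Snora2b with Kansl2, 0.114 for Snord82 with Ncl and 0.267 for Snord92 with Wdr43. Snhg6 had values of -0.05, -0.11, -0.04 and -0.09 in males and 0.04, 0.04, 0.07 and 0.27 in females (difference 0.18, SE 0.05, limma adjusted p = 0.559), with all females above all males as for Snord87. Rpl32 differed by 0.21 (SE 0.06, limma adjusted p = 0.550).

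**Figure D5:**
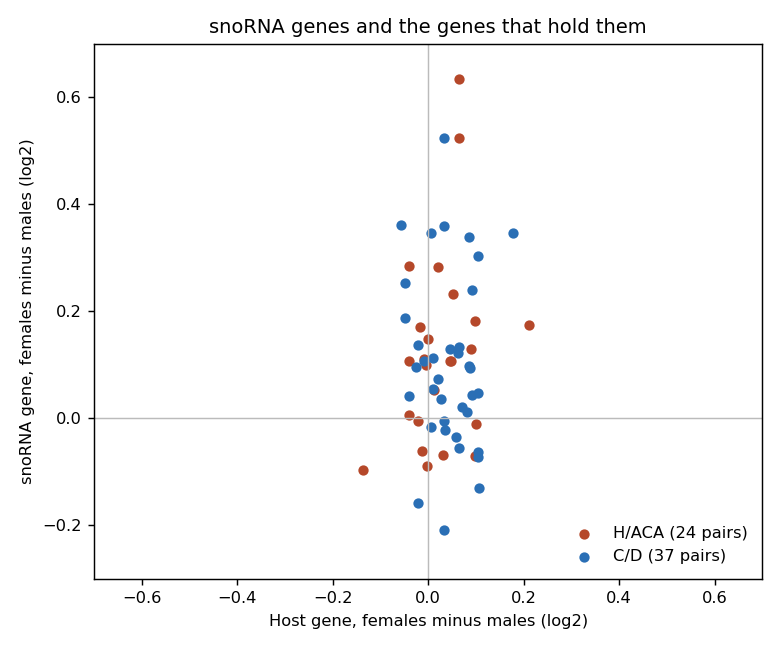
Female minus male difference (log2) of each snoRNA gene (vertical axis) against that of the measured gene that holds it (horizontal axis), 24 H/ACA and 37 C/D pairs, 4 hearts per sex. The points spread more vertically than horizontally: the U17 genes reach 0.63 and 0.52 above a host at 0.06, and no host exceeds 0.21.

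snoRNAs of the same host varied together in some pairs and not in others. The 18 pairs of members that share 1 of 11 hosts had a median r of 0.239, with 7 below 0, and the 2610 pairs with no shared host had 0.193. The U17 pair (r 0.983) was the only 1 of the 18 same-host pairs at 0.7 or above, against 203 of the 2610 pairs with no shared host. Snora16a, Snora44, Snora61 and Snord99, all held by Snhg12, had r between -0.500 and 0.265, and Snord43 and Snord83b, both in the ribosomal protein gene Rpl3, had r of -0.743. The pairs within Snhg12 make up a large part of the 18. Other pairs of the same family within a host had r of 0.568 for Snord49a and Snord49b and 0.684 for Snord73a and Snord73b. Pairs of unlike snoRNAs with a higher r were Snord19 and Snord69 (0.658), Snord53 and Snord92 (0.641), and Snord11 and Snord70 (0.602, but rho 0.0238).

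The proteins of the snoRNA particles did not pass the test in any list. Of the C/D core proteins, Nop56, Nop58 and Snu13 were measured, and all 3 had higher means in males (differences of -0.06, -0.05 and -0.07). Of the 4 H/ACA core proteins, Dkc1 (0.04), Nop10 (0.04) and Nhp2 (0.01) had higher means in females and Gar1 (-0.03) in males. The 13 measured assembly and transport factors had 9 higher in females and 4 in males. Znhit6, a C/D assembly factor, was at 0.09 (SE 0.05) and Znhit3 at -0.10 (SE 0.08). Among 19 proteins of U3 and pre-rRNA processing 12 were higher in females and 7 in males. Imp4, a U3 protein, was at 0.14 (SE 0.04, limma adjusted p = 0.485). Pes1, Nat10 and Wdr12, next by p in this list, were at -0.08 (SE 0.04), -0.09 (SE 0.05) and -0.10 (SE 0.06). Of 8 enzymes that release or trim introns and RNA ends 6 were higher in females, with the exosome nuclease Exosc10 at 0.13 (SE 0.06).

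Several small RNA genes outside the naming rule also had higher means in females. Scarna2, a small Cajal body RNA that guides modification of spliceosomal RNA, had values of -0.08, -0.06, -0.11 and -0.10 in males and 0.28, 0.32, 0.41 and 0.06 in females (difference 0.36, SE 0.07, limma adjusted p = 0.267). All females were above all males, female 4 by the least. Terc, the telomerase RNA, which carries an H/ACA domain, had values of -0.37, -0.14, 0.05 and -0.37 in males and -0.05, 0.48, 0.38 and 0.53 in females (difference 0.54, SE 0.14, limma adjusted p = 0.483). Of the 6 measured polymerase III and other housekeeping small RNAs 5 had higher means in females, and of 5 small Cajal body RNA genes 3. Of 4 genes with Rnu symbols 3 were higher in females, but 1 of these 3 is Rnu3a, the U3 snoRNA described above. The share over all genes was 49.6%. Scarna8, a small Cajal body RNA gene, was higher in males, with a difference of -0.12 (SE 0.06). Among 15 measured noncoding host genes 7 were higher in females and 8 in males. Snhg14 had the smallest p of these and was higher in males (difference -0.22, SE 0.06, limma adjusted p = 0.542).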

How the data were processed

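RNA from 8 hearts was measured on expression arrays. The deposited table, as the authors processed it, holds log2 values for 34351 probe sets. Base 2 was assumed, and how the probe intensities were corrected, normalized and summarized is not given in the sources used here. Every probe set has a median of 0 over the arrays (tolerance 1e-06). The platform annotation supplied with the data gave 1 symbol for 23521 probe sets, several for 1814 and none for 9016. Probe sets of a gene were averaged to 22180 genes, of which 21994 matched RefSeq by Entrez ID.

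A linear model with a term for sex was fitted to all genes (lmFit, then eBayes; limma 3.58.1 under R 4.3.3), giving females minus males. P-values were adjusted over all genes by Benjamini-Hochberg, with a threshold of 0.05, and the code was checked on simulated data. The labels call the samples biological replicates. Classes were described by counts and medians. Correlations are descriptions over 8 arrays. Hosts are RefSeq genes whose bounds contain the snoRNA gene; the plan also asked for the same strand, which that table does not give.

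The members and the lists were chosen with earlier results of these data known. Named members are, per class, the 6 with the smallest p, the 6 with the largest SD and the 3 with the highest mean correlation; of each list, up to 4 with the smallest p; and their hosts. Other genes named (Snord22, Snord35b, Snora44, Snord88c, Snord15a, Snora30 with Srcap, Snora2b, Snord82, pairs within a host, Snord83b, the 3 members of smallest SD and single liver transcripts) were chosen after their values were seen.

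Same-numbered males and females had correlations of their deviations from the group means between 0.00618 and 0.137, not all above 0.1, so the numbers were not taken as pairs.

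The fits were repeated with each heart left out in turn, after quantile normalization or centring of each array on its median, with weighted arrays, with the replicate block, with eBayes set to trend and robust, with autosomal genes only and with other ways to combine the probe sets of a gene. Leaving out the 2 arrays with the highest Alb was added after seeing the data.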

Additional observations from a re-analysis of the deposited data

Results flagged for a closer look

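Over 49 items and 98 groups of 4 hearts, 5 groups had a heart that stood apart from the other 3 by more than Dixon's 95% critical share of the range, which chance alone gives in about 1 group in 20. Snora34 in females was at -0.43 in female 1, against 0.35, 0.30 and 0.25 in the others. Snord47 in males was at 0.25 in male 3, against -0.34, -0.40 and -0.29. Snord118 in males was at -0.19 in male 2, against 0.01, -0.01 and -0.01. The noncoding host gene Snhg4 was at -0.31 in female 4, against 0.04, -0.02 and -0.01 in the other females. Snhg6, which holds Snord87, was at 0.27 in female 4, against 0.04, 0.04 and 0.07.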

How the results depend on the processing

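No snoRNA gene passed the adjusted threshold of 0.05 under any alternative run. In the reported fit, none passed at an adjusted p under 0.1 either, a threshold that was not counted in the other runs. Over 408 comparisons of 24 named members with their reported differences, 402 kept the direction, and the lowest adjusted p was 0.183. Part of these kept it by construction. The eBayes setting, the replicate block, autosomal genes only and added probe sets leave each difference unchanged, so they could not turn a direction. Taking the probe set with the largest SD could change only Snora33, the 1 named member with 2 probe sets. Centring could shift differences only slightly, as array medians lay between -0.00211 and 0.00230. The direction turned for Snora74a (0.0543 without male 1, 0.0485 without female 1 and 0.0712 without females 1 and 2; -0.225 to 0.0543 over all single hearts left out). It turned for Snord13 (-0.0113 without female 2 and -0.0704 without females 1 and 2; -0.0113 to 0.190 over single hearts left out) and for Snord71 (-0.0342 without females 1 and 2). Leaving out females 1 and 2, chosen after seeing the data, gave a median C/D difference of 0.0366, a range of the C/D medians of 0.111 and 12 members at an unadjusted p under 0.05, against 16 with all hearts. With each heart left out in turn, the range of the H/ACA medians was 0.138 to 0.156 and that of the C/D medians 0.139 to 0.238. The median pairwise r was 0.0957 to 0.231 within H/ACA and 0.128 to 0.269 within C/D genes, and the median r with host genes -0.0587 to 0.149. The share of members higher in females was 71.2% to 80.8%. Among the particle proteins and other small RNAs the calls numbered 0 to 1, the 1 being Scarna2 without female 4 (limma adjusted p = 0.0185). The cause was not tested.

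With the replicate number as a block the count of snoRNA genes passing was 0, as without it, and 5 of 8 arrays correlated best with their own number. Leaving out the Snord115 and Snord116 loci changes nothing, as no member comes from them, so that alternative only added probe sets of several snoRNA symbols. Host pairs were not run with each probe set by itself, all pairs of genes were used in place of a drawn sample, and the trend setting acted on centred values. Centred values hold no brightness, so signal over background could not be judged.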
